A study of Rattus norvegicus with 12 samples.

Results

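The comparison described here is between the uteri of 3 rats that received 17β-estradiol (E2) together with 3-methylcholanthrene (3-MC) and those of 3 rats that received E2 alone, out of 12 rats in 4 treatment groups. All animals were ovariectomized young adult Lewis rats, so that the main source of their own estrogens had been removed in every group, controls included. E2 was given at 4 µg/kg per day and 3-MC at 15 mg/kg per day. The other 2 groups received the DMSO vehicle or 3-MC alone, with 3 rats each. Dosing lasted 3 days, and uteri were taken 24 h after the last dose, so that 1 dose of each agent and 1 time point were studied. Total RNA of each uterus was made into biotinylated cRNA and hybridised to 1 Affymetrix array. The 6 arrays of the comparison carry 29214 probe sets, of which 15310 have 1 gene symbol; they stand for 14506 genes, and 10154 of these were bright enough to be tested. Values below are normalized intensities, and differences are on the log2(intensity + 16) scale, E2+3-MC minus E2, with the standard error (SE) of the limma fit and n = 3 rats per group throughout. Rats within a group are separate animals, per the labels.

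Estradiol binds estrogen receptors, which are transcription factors. In the uterus it drives fluid uptake, growth of the epithelium and secretion, and it lowers the expression of many genes of the unstimulated organ. 3-MC is a polycyclic aromatic hydrocarbon and a ligand of the aryl hydrocarbon receptor (AhR). Ligand-bound AhR pairs with Arnt, binds DNA at a core of GCGTG, and induces genes of xenobiotic metabolism such as Cyp1a1, as well as its own repressor Ahrr. AhR ligands are known both for antiestrogenic and for estrogen-like effects in the uterus, and the comparison asks what 3-MC changes when estradiol is present.

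The 3 rats given both agents were not alike. Across all genes tested, E2+3-MC rat 3 had its highest correlation with an E2 rat (r = 0.988 with E2 rat 1) rather than with its own group. Rat 2 lay farthest from the E2 group: the median absolute log2 distance from the E2 mean was 0.138, 0.21 and 0.107 in rats 1, 2 and 3. Among the 2296 genes whose groups did not overlap, rat 3 was the one nearest to the E2 mean for 1392 genes and rat 2 the farthest for 1522. Median intensities of the deposited arrays were 107.6, 86.9 and 86.3 in the E2 rats and 118.4, 112.2 and 110.3 in the E2+3-MC rats. These medians did not overlap; the values used here were quantile normalized. On the deposited scale the median difference over all genes was 0.15, against -0.01 after quantile normalization and -0.10 with median centring. The estradiol part of the labels was borne out by estrogen markers. Complement C3, a classic estrogen-induced uterine gene, read 6131, 5508 and 5169.6 in the E2 rats and 4729, 4103 and 5639 in the E2+3-MC rats, against 65.5, 28.2 and 36.7 in the vehicle rats. Esr1, Pgr and 20 smooth muscle genes of the myometrium were above the limit below which genes were left out as dim. No marker bright enough to be tested bore out the 3-MC part of the labels. Cyp1a1, the classic 3-MC-induced gene, was dim, and its E2 and E2+3-MC rats overlapped. Among other dim AhR targets, Ahrr was higher in every E2+3-MC rat than in every E2 rat, rat 3 included, while Cyp1b1 was lower. Neither was tested, and without estradiol Ahrr overlapped between 3-MC and vehicle rats.

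Adding 3-MC to estradiol changed 2 genes beyond the spread between rats. Postn rose and Dnajc14 fell at an adjusted p under 0.05 (limma, Benjamini-Hochberg over 10154 genes), which is 0.0197% of the genes tested, 0.00985% in each direction. A further 13 genes had an adjusted p under 0.10. At an unadjusted p under 0.05 there were 1317 genes (13%), 564 higher (5.55%) and 753 lower (7.42%). The 3 rats of one group lay entirely above or below those of the other for 2296 genes (22.6%), with 973 higher (9.58%) and 1323 lower (13%) in the E2+3-MC rats. This direction depended on the scale: without normalization 1694 genes (16.7%) were higher and 119 (1.17%) lower. The median absolute difference over all genes was 0.126 against a median SE of 0.131. By comparison, estradiol against vehicle changed 3901 genes (38.4%) in the same fit. The number of calls rested on single rats. It was 284 without E2+3-MC rat 3, of which 89 were higher and 195 lower, and 19 without vehicle rat 1. It was 1 (Postn) without E2+3-MC rat 1 or rat 2, and 0 without E2 rat 2 or rat 3. In the 6 arrays of the 2 groups alone it was also 0.

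**Figure D1:**
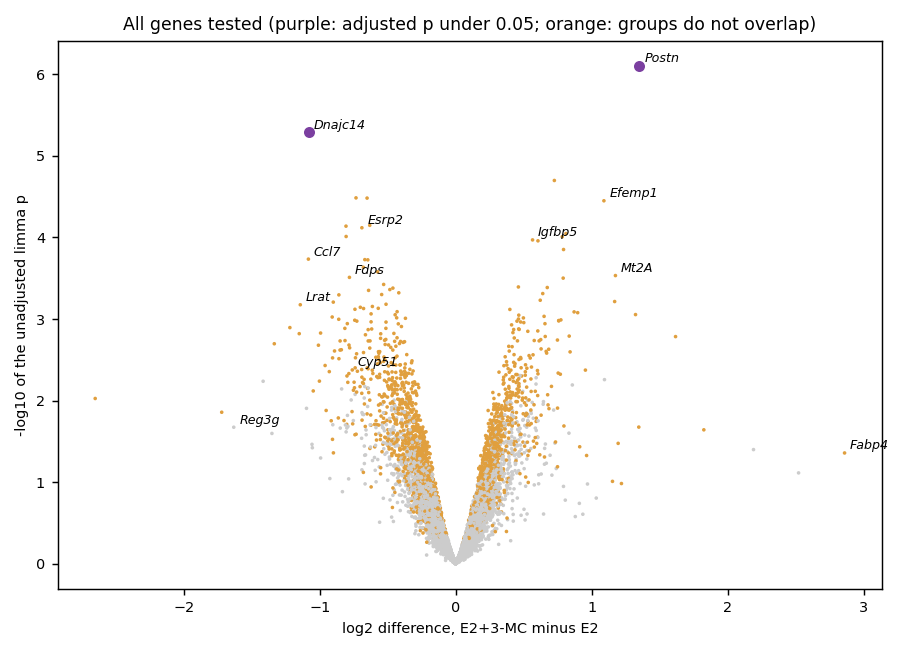
Each dot is 1 of the 10154 genes tested, with the log2 difference between E2+3-MC and E2 on the x axis and -log10 of the unadjusted limma p on the y axis. Purple marks the 2 genes with an adjusted p under 0.05, and orange the 2296 genes with no overlap between the groups. Postn and Dnajc14 stand above all other genes, while Fabp4, with the largest difference, has a large spread.

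Postn encodes periostin, a secreted matrix protein of connective tissue that binds integrins and collagen. Its intensity (probe set 10815369) was 415, 410.0 and 386 in the E2 rats and 879, 1304 and 1012 in the E2+3-MC rats. All 3 rats given both agents thus lay above all 3 given estradiol alone, rat 3 included. The rise was 1.35 ± 0.15 (adjusted p = 0.00793), or 2.54-fold. In the vehicle rats Postn read 1301, 1609 and 1508 and in the 3-MC rats 1885, 2119 and 2649. The difference made by E2 against vehicle, which shares the E2 rats with the rise just given, was -1.82. 3-MC against vehicle, which shares no rat with it, gave 0.58. Postn was called in 12 of 17 alternative settings, and its difference ranged from 1.19 to 1.49. It missed the threshold on the deposited scale (adjusted p = 0.0775), with median centring (0.234), in the 6 arrays alone (0.0606), and without E2 rat 2 (0.0507) or E2 rat 3 (0.0951).

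Dnajc14 encodes a J-domain co-chaperone of the endoplasmic reticulum membrane. Its intensity (probe set 10893242) was 277, 386 and 314 in the E2 rats and 125, 155 and 154 in the E2+3-MC rats, so the groups did not overlap. The difference was -1.08 ± 0.15 (adjusted p = 0.026), a 2.12-fold higher level with estradiol alone. Vehicle rats read 176, 177 and 217 and 3-MC rats 182, 244 and 191. All 3 rats given both agents therefore also lay below all vehicle and all 3-MC rats, unlike Postn, whose mean lay between those of estradiol and vehicle. Dnajc14 was called in 11 of 17 alternatives, with a difference from -1.21 to -0.90. It missed the threshold on the deposited scale (adjusted p = 0.132), in the 6 arrays alone (0.0841), without E2 rat 2 (0.102) or rat 3 (0.169), and without E2+3-MC rat 1 (0.123) or rat 2 (0.0656).

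The promoters of the 2 called genes are shown because they are the only genes past the threshold, with that of Ahrr, a textbook AhR target, for comparison. Sequences are from RefSeq (GRCr8), 250 bases before to 50 after the first listed start, 5′ to 3′ on the strand of the gene. Capitals mark GCGTG or its reverse complement CACGC, the core bound by AhR and Arnt, searched on both strands. The Postn promoter (chr2:140677811-140678110, plus strand) holds no match:
Postn: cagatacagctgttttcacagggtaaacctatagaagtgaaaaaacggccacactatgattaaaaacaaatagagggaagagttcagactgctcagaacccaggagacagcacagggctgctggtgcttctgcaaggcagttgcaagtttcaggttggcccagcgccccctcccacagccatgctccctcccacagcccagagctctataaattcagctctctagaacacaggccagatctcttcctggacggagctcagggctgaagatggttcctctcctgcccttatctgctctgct
The Dnajc14 promoter (chr7:1819447-1819746, plus strand) holds 2:
Dnajc14: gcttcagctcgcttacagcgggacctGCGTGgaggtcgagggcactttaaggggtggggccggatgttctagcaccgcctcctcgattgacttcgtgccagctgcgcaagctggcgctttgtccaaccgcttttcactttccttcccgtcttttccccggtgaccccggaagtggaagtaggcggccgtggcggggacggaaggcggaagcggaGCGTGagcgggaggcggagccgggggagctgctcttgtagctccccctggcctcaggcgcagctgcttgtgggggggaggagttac
The Ahrr promoter (chr1:30821969-30822268, plus strand) holds 3:
Ahrr: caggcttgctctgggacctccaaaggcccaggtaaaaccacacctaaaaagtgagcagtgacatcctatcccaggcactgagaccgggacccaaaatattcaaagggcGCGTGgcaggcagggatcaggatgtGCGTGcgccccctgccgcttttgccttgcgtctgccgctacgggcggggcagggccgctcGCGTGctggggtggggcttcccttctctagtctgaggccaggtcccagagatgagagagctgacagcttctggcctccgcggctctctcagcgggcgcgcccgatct
Of the 8402 tested genes with a promoter in the table, 48.1% held at least 1 such match, and of all 33469 promoters 29.7% did. The letters describe these windows and do not show binding.

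The genes next to Postn by p, with higher values after 3-MC was added, did not pass the test. Efemp1 encodes fibulin-3, an extracellular glycoprotein. It read 349.7, 359.5 and 358 in the E2 rats, 738, 1098 and 573 in the E2+3-MC rats and 2164, 1722 and 1806 in the vehicle rats. Every rat given both agents was above every E2 rat and below every vehicle rat. The difference was 1.09 ± 0.18 (adjusted p = 0.0601). Ctnnd2, a catenin of cell junctions, read 21.5, 33.4 and 28.0 and 57.6, 59.4 and 50.4 in the E2 and E2+3-MC rats, a difference of 0.72 ± 0.11 (adjusted p = 0.0601). Its vehicle rats stood at 134, 123 and 140.2, again above both. The Ctnnd2 means of the E2 and E2+3-MC rats, 5.44 and 6.16 in log2, were below the dim limit of 6.44. It entered the test through its brighter vehicle (7.21) and 3-MC (7.01) rats, because the limit applies to the mean of all arrays. Igfbp5, a binding protein of insulin-like growth factors, read 1379.7, 1265 and 1188 against 1732, 1841 and 2126, a difference of 0.56 ± 0.10 (adjusted p = 0.0797). Here rat 3 was the highest of its group, and leaving it out gave 0.48. Gpm6a, a membrane glycoprotein of nerve cells and mesothelium, read 77.5, 63.7 and 75.6 against 156, 112 and 142 (0.78 ± 0.14, adjusted p = 0.0797). Itgbl1, a secreted integrin-like protein, differed by 0.60, Plscr2, a phospholipid scramblase, by 0.81, and Angpt1, the ligand of the endothelial receptor Tie2, by 0.79. Their adjusted p-values were 0.0797, 0.0797 and 0.0951. Mt2A, a metal-binding metallothionein, read 793, 669 and 790.1 against 1326, 2974 and 1263, with rat 2 far above the other two of its group (1.17 ± 0.24, adjusted p = 0.139). Smpdl3a, a phosphodiesterase related to acid sphingomyelinase, read 317, 300.4 and 329.8 against 449, 643 and 598 (0.79, adjusted p = 0.139). In Efemp1, Ctnnd2, Igfbp5, Gpm6a and Mt2A every rat given both agents was still below every vehicle rat, while Itgbl1, Plscr2, Angpt1 and Smpdl3a overlapped with the vehicle rats.

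The genes next to Dnajc14 by p, with lower values after 3-MC was added, also did not pass the test. Adra1d, the alpha-1D adrenergic receptor, read 135, 167 and 155 in the E2 rats and 77.9, 78.4 and 83.2 in the E2+3-MC rats. The latter were nearly equal, below every E2 rat and among the vehicle rats at 59.3, 93.5 and 66.9. The difference was -0.81 ± 0.14 (adjusted p = 0.0797). Adcy1, an adenylyl cyclase that makes cyclic AMP, read 140.3, 111 and 146 against 70.1, 67.8 and 81.0 (-0.73 ± 0.12, adjusted p = 0.0601). Esrp2, a splicing regulator of epithelial cells, read 169.9, 177 and 192 against 109, 87.5 and 121 (-0.69 ± 0.12, adjusted p = 0.0797). Ovol2, a zinc finger factor of epithelia, differed by -0.65 (adjusted p = 0.106). Lmo2, a transcription cofactor of blood and endothelial cells, differed by -0.63, and the vasopressin-induced gene Avpi1 by -0.81, both at an adjusted p of 0.0797. Ankrd54, an ankyrin repeat protein, read 194, 167 and 183 against 117, 94.5 and 118 (-0.65, adjusted p = 0.0601), and Tp53i11 differed by -0.67. Ccl7, a chemokine that attracts monocytes, had the largest difference of this group. It read 1215, 950.1 and 1338 in the E2 rats, 616, 405 and 617 in the E2+3-MC rats and 218, 155 and 120.0 in the vehicle rats (-1.08 ± 0.21, adjusted p = 0.106). In each of these 9 genes the vehicle rats, like the E2+3-MC rats, lay below every E2 rat. All 18 genes of both paragraphs were picked for small p in the contrast that shares its E2 rats with E2 against vehicle, so this position is a description only.

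**Figure D2:**
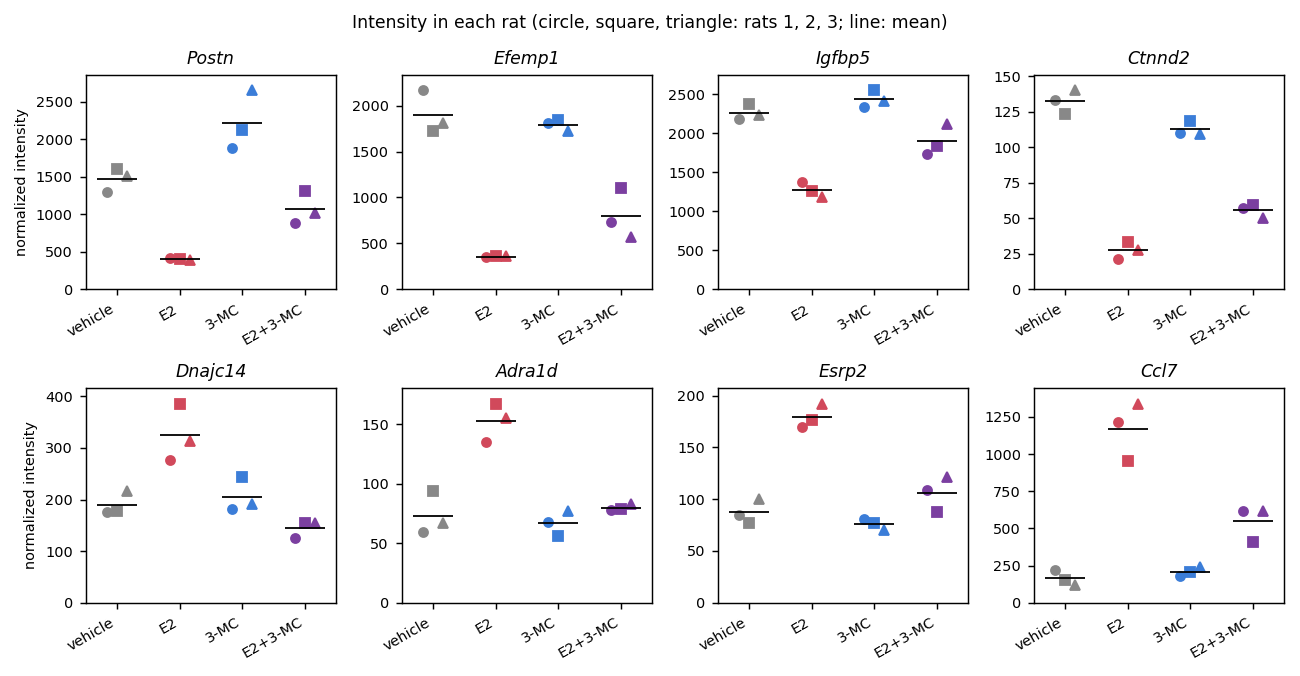
Normalized intensity (y axis, from 0) of 8 genes in each of the 12 rats; circles, squares and triangles are rats 1, 2 and 3, and lines are group means. Postn, Efemp1, Igfbp5 and Ctnnd2 are higher in all 3 E2+3-MC rats than in all 3 E2 rats, and Dnajc14, Adra1d, Esrp2 and Ccl7 lower. Only Postn and Dnajc14 passed the test, and the Ctnnd2 means of both groups lie below the dim limit.

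The AhR receptor genes and their textbook targets showed no common direction. Ahr itself read 209.7, 194 and 214 in the E2 rats and 181, 200.5 and 206 in the E2+3-MC rats, which overlapped (-0.07 ± 0.10, adjusted p = 0.811; its sign turned on the deposited scale). Arnt differed by 0.12 ± 0.11. Cyp1a1, the classic AhR target, was too dim to test, at 18.2, 26.5 and 25.1 and 18.4, 22.2 and 32.9, with vehicle rats at 36.2, 24.0 and 14.9. Cyp1a2 (-0.01) and Cyp1b1 (-0.17) were also below the dim limit. Ahrr, the AhR repressor, was dim but did not overlap. It read 34.6, 29.4 and 30.7 in the E2 rats, 41.8, 45.6 and 43.7 in the E2+3-MC rats and 60.4, 60.6 and 59.9 in the vehicle rats, a difference of 0.33 that was not tested. In the 3-MC rats without estradiol Ahrr read 52.1, 61.1 and 52.8, which overlapped with vehicle. Nqo1, a quinone reductase, was lower in every rat given both agents (118, 155 and 131 against 113, 74.4 and 112; -0.39 ± 0.19, adjusted p = 0.404), while Aldh3a1, an aldehyde dehydrogenase, overlapped (0.36 ± 0.16, adjusted p = 0.362). Tiparp had no probe set with a single symbol. Of the 16 tested AhR targets none was called, 2 were higher and 3 lower without overlap (31.2%, against 22.6% of all genes). Their median was 0.09 and turned to -0.07 with median centring, or 0.03 relative to all genes. The members that stood apart included Lrat, which esterifies retinol, at 433, 511 and 473 against 219, 116 and 329 (-1.14 ± 0.26, adjusted p = 0.164), and the actin-severing gene Scin (-0.91 ± 0.25, 0.202). On the higher side were the fatty acid transporter Cd36 (1.15 ± 0.65, adjusted p = 0.472) and the cell cycle inhibitor Cdkn1b (0.24). Cd36 is also among the adipocyte markers described below. Lrat and Scin passed the test without E2+3-MC rat 3, at -1.45 and -1.20 (adjusted p = 0.0107 and 0.0153). Among the 7 tested genes of the receptor complex, Arnt2, a partner of the same protein family as Arnt, read 111, 115 and 80.5 against 202, 367 and 124 (0.95 ± 0.28, adjusted p = 0.224). Its vehicle level was 564, 761 and 646.

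The best known estrogen-induced uterine genes kept high levels when 3-MC was added. S100g, a calcium-binding protein, read 4006, 3925 and 3751 in the E2 rats and 3740.4, 3703 and 4532 in the E2+3-MC rats (0.03 ± 0.20), against 102, 144 and 127 in the vehicle rats. C3 differed by -0.22 ± 0.26, Igf1 by 0.02 ± 0.19 and the progesterone receptor Pgr by 0.03 ± 0.14, with adjusted p-values from 0.746 to 0.982 for these 4 genes. The signs of S100g, Igf1 and Pgr turned with median centring. Over the 33 tested members of the estrogen-induced list, none was called and the median was -0.22, with 1 member higher and 8 lower without overlap (27.3%, near the 22.6% of all genes). The list's median for E2 against vehicle was 0.63. The same E2 rats enter both comparisons, so the list's direction is no independent evidence. On the deposited scale 3 members were higher and 3 lower without overlap, with a median of -0.19, or -0.34 relative to all genes. Of all genes, 16.7% were higher and 1.17% lower on that scale. After quantile normalization Fgfr2 was the higher one (0.36). The lower ones included Prss32, a serine protease, at 4952, 4461 and 4939 against 2523, 1849 and 3864 (-0.86 ± 0.20, adjusted p = 0.164). They also included the creatine kinase Ckb (-0.69 ± 0.21) and the transcription factor Klf4 (-0.75 ± 0.23). Reg3g, an antimicrobial lectin of epithelium, read 8645, 7999.6 and 10203 against 3598, 743 and 8645: rat 3 equalled the E2 rats and rat 2 was lowest. Prss32 was near background without estradiol, at 15.5, 14.3 and 22.3 in the vehicle rats. Prss32 and Reg3g passed the test without E2+3-MC rat 3.

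Among genes known to be lowered by estradiol, levels stood higher with 3-MC. Of the 20 tested members, 11 were higher without overlap and none lower (55%, against 22.6% of all genes). The median was 0.42, and 1, Postn, was called. This list was written with earlier results of these rats known, and its members are low in the same E2 rats that enter the comparison, so its direction is no independent evidence. Beside Postn and Efemp1, Gstm1, a glutathione transferase, read 469, 428 and 395 against 752, 1041 and 527 (0.77 ± 0.18, adjusted p = 0.164). Gstm7, its close relative, read 45.2, 47.1 and 27.4 against 131, 391 and 64.7 (1.62 ± 0.41, adjusted p = 0.177), with vehicle rats at 1235, 1446 and 1431. In both, rat 2 was highest and rat 3 lowest of its group. The genes are near copies of each other, and the probes may not tell them apart. Clusterin (Clu), a secreted chaperone, read 238, 241 and 226 against 299, 312 and 260.2 (0.28 ± 0.12, adjusted p = 0.345), far below the vehicle rats at 2564, 2516 and 2564. Without E2+3-MC rat 2 the list's median was 0.24, and without rat 3 it was 0.54 with 6 members called. Among steroid receptors, Esr1 differed by 0.11 ± 0.11 and Esr2 was dim (0.25). The coactivator Ncoa1 read 334, 311 and 309 against 373, 433 and 379 (0.30 ± 0.10, adjusted p = 0.268).

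Cholesterol synthesis was the list with the lowest median. All 18 tested members had lower means in the E2+3-MC rats, 13 of them without overlap (72.2%, against 22.6% of all genes). The median was -0.54. None passed the test. E2 against vehicle, which shares the E2 rats, gave a median of 0.85, so the list's direction is no independent evidence. The list runs from early mevalonate steps to late sterol steps, together with the regulators Srebf2 and Insig1. Farnesyl diphosphate synthase (Fdps) read 1169, 1284 and 1484 in the E2 rats, 869, 598 and 820.4 in the E2+3-MC rats and 513, 400.0 and 559 in the vehicle rats (-0.78 ± 0.16, adjusted p = 0.139). Squalene synthase (Fdft1) read 513, 572 and 659.7 against 450.0, 229 and 334 (-0.80 ± 0.19, adjusted p = 0.164). The C4-demethylating oxidase Msmo1 read 457, 547 and 641 against 405, 202 and 309 (-0.85 ± 0.23). Lanosterol demethylase (Cyp51) read 857, 903 and 1122 against 727, 376 and 627 (-0.76 ± 0.22), and mevalonate diphosphate decarboxylase (Mvd) 193, 226 and 243 against 164, 132 and 147 (-0.53 ± 0.11, adjusted p = 0.156). Srebf2, the transcription factor of the pathway, read 419, 441 and 494 against 346, 238 and 321 (-0.57 ± 0.13, adjusted p = 0.164). In each of these 6 genes rat 2 was the lowest rat of its group. Isopentenyl diphosphate isomerase (Idi1), which estradiol against vehicle raised most among the members (2.82), read 1203, 1355 and 1379.7 against 1080.3, 644 and 1071, and stayed above the vehicle rats at 218, 133 and 175. The list's median was -0.35 without rat 2 and -0.63 without rat 3. With rat 3 left out, Fdps and Srebf2 passed the test (-0.84 and -0.62; adjusted p = 0.031 and 0.045). On the deposited scale the median was -0.43, or -0.58 relative to all genes, with 9 members without overlap.

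**Figure D3:**
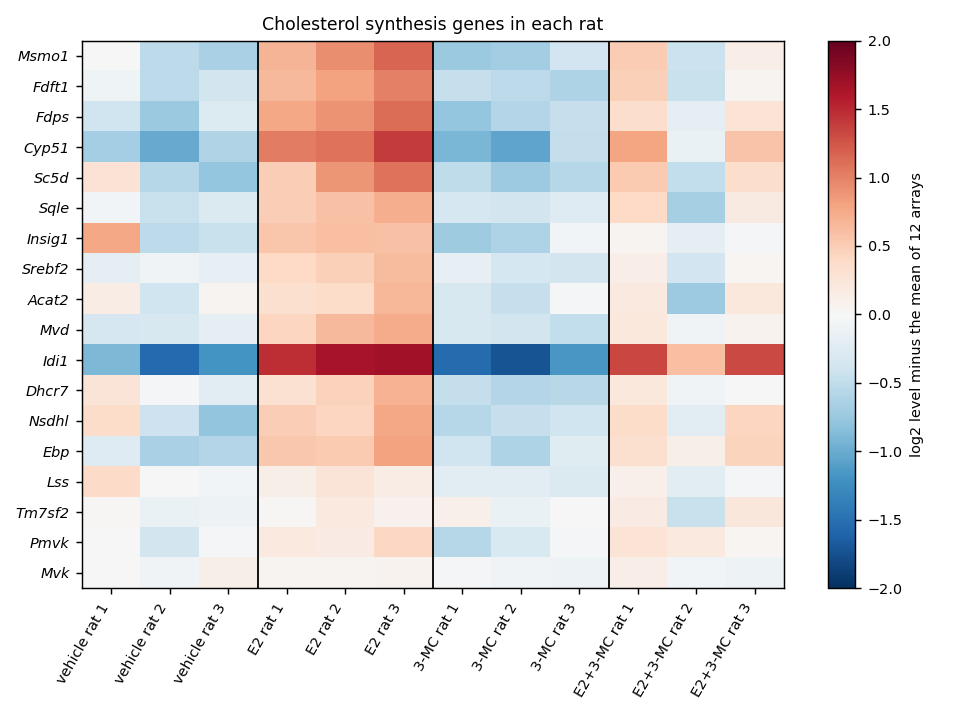
Heat map of the 18 tested cholesterol synthesis genes (rows, ordered by the difference between E2+3-MC and E2) in the 12 rats (columns). Colour is the log2 level minus the gene's mean over 12 arrays. On average over the genes the 3 E2 rats are highest, and among the E2+3-MC rats, rat 2 is lowest.

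Promoters of Fdps and Mvd are shown as the 2 members of smallest p. Capitals mark CCAAT or its reverse complement ATTGG, the box bound by NF-Y, a factor known to act with SREBP at sterol genes. Fdps lies at chr2:176804767-176805066 and Mvd at chr19:67414925-67415224 (RefSeq, GRCr8, minus strand), and each window holds 2 matches:
Fdps: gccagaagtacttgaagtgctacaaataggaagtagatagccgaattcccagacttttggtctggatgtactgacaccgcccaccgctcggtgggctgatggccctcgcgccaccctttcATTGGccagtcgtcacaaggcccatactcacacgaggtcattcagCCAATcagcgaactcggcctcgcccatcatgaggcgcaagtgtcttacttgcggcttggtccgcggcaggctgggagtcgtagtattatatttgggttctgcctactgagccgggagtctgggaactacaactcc
Mvd: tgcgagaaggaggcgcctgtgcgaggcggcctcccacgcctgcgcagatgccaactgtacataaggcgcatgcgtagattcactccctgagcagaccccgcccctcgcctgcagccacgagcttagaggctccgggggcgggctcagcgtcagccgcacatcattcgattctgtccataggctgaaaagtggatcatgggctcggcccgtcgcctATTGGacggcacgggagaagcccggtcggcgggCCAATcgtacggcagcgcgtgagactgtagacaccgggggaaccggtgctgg
Of the 15 list members with a promoter in the table, 12 (80%) held a CCAAT match, against 37.6% of the tested genes. The sterol element TCACNCCAC was found in 0 of the 15 and in 1.14% of the tested genes.

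Markers of luminal and glandular epithelium were also lower. Of 28 tested members, 17 were lower without overlap and none higher (60.7%, against 22.6% of all genes). The median was -0.31, though none passed the test. E2 against vehicle, which shares the E2 rats, gave a median of 0.81, so the list's direction is no independent evidence. The keratin Krt8 read 2604, 2742 and 2761 in the E2 rats and 1941, 773 and 2434 in the E2+3-MC rats (-0.80 ± 0.30, adjusted p = 0.303). Krt19 read 4021, 3877 and 3723 against 2833, 1565 and 2999 (-0.70 ± 0.22, adjusted p = 0.238). In both keratins rat 2 was lowest, but still above the vehicle rats, at 444, 321 and 358 for Krt8. The protease inhibitor Spint1 read 336, 318 and 287 against 213, 219.9 and 252 (-0.43 ± 0.10, adjusted p = 0.164), and the epithelial factor Elf3 1403, 1493 and 1447 against 991, 846 and 1256 (-0.50 ± 0.21). Epcam, a surface marker of epithelium, differed by -0.19 ± 0.10. The stem cell receptor Lgr5 was the member with the highest difference (0.48 ± 0.21). In whole uterus, fewer cells of a type and less RNA per cell cannot be told apart. The list's mean level over its members, as a log2 deviation from the mean of the 12 arrays, was 0.63, 0.57 and 0.57 in the E2 rats and 0.31, 0.13 and 0.42 in the E2+3-MC rats. Their groups did not overlap. On the deposited scale 2 members (7.14%) were lower without overlap, against 1.17% of all genes on that scale, with a median of -0.22, or -0.37 relative to all genes. The mean level of the cholesterol genes was 0.50, 0.61 and 0.77 in the E2 rats and 0.36, -0.21 and 0.23 in the E2+3-MC rats, and that of the estrogen-induced genes 1.02, 0.94 and 1.04 and 0.75, 0.50 and 0.95. In all 3 lists rat 2 was lowest, and the part of the epithelial level in the other differences was not tested.

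Other cell type markers went in both directions, and none was called. Endometrial stroma had a median of 0.18 over 18 genes, with 1 higher and 1 lower without overlap (11.1%, against 22.6% of all genes). The sign turned with median centring (-0.02, or 0.08 relative to all genes). Lum, a collagen-binding proteoglycan, read 509, 501 and 684 against 1076, 1045 and 561 and overlapped. Myometrial smooth muscle (-0.09, 1 of 20 without overlap), endothelium (-0.01, 2 of 20) and macrophages (-0.04, 1 of 18) lay below the 22.6% of all genes. The signs of the last 2 medians turned on the deposited scale. Relative to all genes they were 0.04 and -0.10 there. Among macrophage genes, the costimulatory receptor Cd86 read 252, 193 and 211 against 119.7, 82.5 and 211, so that rat 3 equalled an E2 rat. Adipocyte markers had the highest median of all lists (0.75; 5 of 13 higher and 1 lower without overlap, 46.2%), but it was 0.18 without E2+3-MC rat 2. Their mean level was -0.74, -0.28 and -0.34 in the E2 rats and 0.07, 1.06 and -0.31 in the E2+3-MC rats, and 1.67, -0.16 and 0.21 in the vehicle rats. Fabp4, a fatty acid carrier, read 33.3, 304 and 200.4 against 983, 3383 and 368, whereas Adipoq, a hormone of fat cells, read 1694, 1849 and 1661 against 1238, 1186 and 2254, so the 2 genes did not order the rats alike. Lpl, lipoprotein lipase, read 218, 198 and 245 against 520.1, 1312 and 285 (1.35 ± 0.51, adjusted p = 0.311). Mesothelium, the lining of the outer surface, had 4 of 5 members higher without overlap (80%) and a median of 0.38, a larger size than that of epithelium. Its mean level was -0.58, -0.58 and -0.72 in the E2 rats and 0.00, -0.23 and -0.17 in the E2+3-MC rats, without overlap. Msln read 142, 197 and 125 against 315, 238 and 265 and Wt1 421, 365 and 388 against 500.4, 555 and 481, with adjusted p-values of 0.224 and 0.213. Skeletal muscle had 2 of 5 lower without overlap (40%, against 22.6% of all genes). These were the troponin Tnnc2 at 604, 849.6 and 944 against 480.3, 295 and 488 (-0.91 ± 0.21) and the actin Acta1 at -0.57. Defining markers of eosinophils (Epx, Prg2), mast cells (Tpsb2, Cma1) and T cells (Cd3d, Cd3g) were below the dim limit. In small lists, 1 of 5 blood (20%), 2 of 6 neutrophil (33.3%) and 3 of 11 nerve markers (27.3%) did not overlap. Neither did 2 of 5 oviduct (40%) and 4 of 9 stratified epithelium markers (44.4%), against 22.6% of all genes. None was called.

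**Figure D4:**
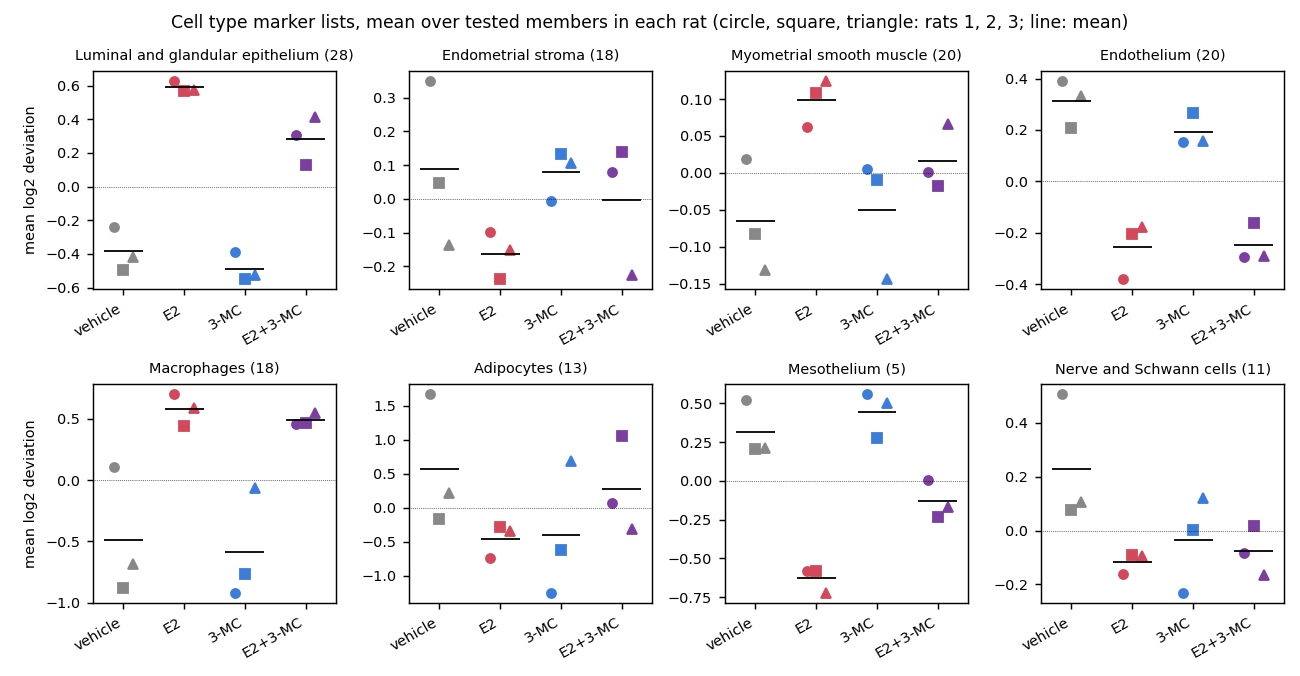
Mean log2 deviation from the mean of 12 arrays over the tested members of 8 marker lists (y axis, scale differs by panel), in each rat; circles, squares and triangles are rats 1, 2 and 3, and lines are group means. The E2+3-MC rats lie below all E2 rats for epithelium and above them for mesothelium, and spread widely for adipocytes, where rat 2 is highest.

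Core clock genes differed in both directions. Of 15 tested members, 7 were higher and 2 lower without overlap (60%, against 22.6% of all genes), the median was 0.24, and none passed the test. Sources used here do not give the hour at which each rat was killed. The higher ones were Per1, Per2, Per3, Nr1d1, Nr1d2, Tef and Clock. Per3, a period gene, read 239, 205 and 194 in the E2 rats and 419.9, 488 and 289.9 in the E2+3-MC rats (0.83 ± 0.21, adjusted p = 0.177). Nr1d1 (Rev-erb alpha) read 389, 336 and 364 against 596, 898 and 443 (0.75 ± 0.19, adjusted p = 0.177), and its relative Nr1d2 319.6, 296 and 261 against 436, 577 and 377 (0.62 ± 0.14). Dbp, an output factor, read 241, 270.4 and 219.8 against 403, 464 and 262 (0.56 ± 0.19), with rat 3 among the E2 rats. The lower ones without overlap were Cry1, at 105, 112 and 124 against 67.5, 57.5 and 101 (-0.53 ± 0.18), and Bhlhe40 (-0.55). Bmal1, the activator whose level runs opposite to Nr1d1 in the cycle, read 168, 157 and 175 against 102, 89.5 and 162 (-0.49 ± 0.19) and overlapped because of rat 3. Without rat 3, 7 members were called. Per3 (1.03), Nr1d1 (0.97), Nr1d2 (0.75) and Dbp (0.79) were higher, and Bmal1 (-0.71), Cry1 (-0.72) and Nfil3 (-0.78) were lower, with adjusted p-values of at most 0.0487.

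Growth factor pathways had no called gene apart from the matrix gene Postn. The shares below stand beside 22.6% of all genes without overlap, 9.58% higher and 13% lower. Of the insulin-like growth factor axis, 5 of 16 were higher and 1 lower without overlap (37.5%). Its median of 0.14 came to 0.006 with median centring, or 0.10 relative to all genes. The receptor Igf1r read 432, 435 and 381 against 521, 673 and 499.6 (0.42 ± 0.15), and Igfbp2, a binding protein, 498, 691 and 612 against 424, 220.0 and 541, which overlapped (-0.66 ± 0.26). The EGF receptor axis had 5 of 13 lower without overlap (38.5%) and 12 of 13 lower means. Its median of -0.23 came to -0.04 on the deposited scale. Relative to all genes it was -0.22 after quantile normalization and -0.19 on the deposited scale. The ligand Btc (betacellulin) read 329.9, 347 and 309.7 against 176, 141 and 308 (-0.69 ± 0.21, adjusted p = 0.232), the ligand Tgfa 153, 128 and 149.8 against 113, 119 and 127 (-0.23 ± 0.10), and the receptor Erbb3 271, 261 and 247 against 198, 154 and 208 (-0.45 ± 0.14). Egfr itself overlapped (-0.23 ± 0.14). Wnt genes had 8 of 30 higher and 2 lower without overlap (33.3%), with a median of 0.15. The ligand Wnt2 read 63.5, 55.0 and 56.1 against 94.8, 135 and 71.1 (0.61 ± 0.16, adjusted p = 0.177), the coreceptor Lrp6 611, 506 and 576 against 738, 834 and 715 (0.43 ± 0.10), and the secreted inhibitor Sfrp4 539.9, 404 and 519.8 against 680.2, 938 and 618 (0.58 ± 0.24). Wnt4, a ligand of stromal and epithelial signalling, was lower in all 3 rats, at 114, 128 and 129.7 against 96.4, 87.5 and 96.0 (-0.36 ± 0.14). All 9 hedgehog genes had higher means, but 1 (Smo) did not overlap, and the target Gli1 read 48.1, 31.3 and 34.7 against 58.2, 62.7 and 32.6, far below its vehicle level of 232, 307 and 298. In the TGF-beta and BMP list 3 of 29 were higher and 1 lower without overlap (13.8%). Inhba, an activin subunit, read 359, 259.6 and 296 against 202, 135 and 258 (-0.61 ± 0.18), and Bmp4 116, 42.5 and 32.4 against 159, 186 and 86.5 with overlap (1.09 ± 0.33). The 42 extracellular matrix genes had a median of 0.11 that turned to -0.08 with median centring (0.01 relative to all genes). Of them, 9 were higher and 3 lower without overlap (28.6%). Beside Postn and Efemp1 these include the matrix proteases Mmp9 (0.58 ± 0.19) and Mmp11 (0.68), while the collagens Col1a1 (0.08) and Col3a1 (0.17) overlapped.

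Genes of cell division stood apart in 1 rat. Of 16 mitosis genes, 3 were higher without overlap (18.8%, below the 22.6% of all genes). The 16 genes had a median of 0.32, and 0.03 without E2+3-MC rat 1. Their mean level was 1.22, 0.37 and 0.25 in the E2+3-MC rats and 0.39, 0.22 and 0.20 in the E2 rats. Top2a, a topoisomerase of dividing cells, read 157, 121 and 96.1 against 403, 215 and 138 (0.83 ± 0.33, adjusted p = 0.325). Pcna, the replication clamp, read 442, 465 and 444 against 714, 466 and 526 (0.30 ± 0.14). The 25 DNA replication genes had a median of 0.17, and 0.0002 without rat 1. Mki67 had no probe set with a single symbol.

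Immediate early genes, the first responders to growth signals, had 8 of 22 members lower and none higher without overlap (36.4%, against 22.6% of all genes). The median was -0.16. On the deposited scale 3 members were lower and 2 higher without overlap, where 1.17% of all genes were lower and 16.7% higher. The median there was -0.05, or -0.20 relative to all genes. Junb read 242, 209 and 235 against 160.4, 143 and 151 (-0.55 ± 0.12, adjusted p = 0.156), and Klf4 554, 584 and 554 against 351, 250.4 and 404. Fos read 309, 268 and 311 against 231, 102 and 296, with rat 3 among the E2 rats. Hypoxia and glycolysis genes had 9 of 26 lower and 1 higher without overlap (38.5%, against 22.6% of all genes), with a median of -0.10. On the deposited scale 4 were higher and 1 lower without overlap (19.2%, against 17.9% of all genes). The median there was -0.01, or -0.16 relative to all genes. The glucose transporter Slc2a1 had the lowest difference of the list, at 591, 699.7 and 649.5 against 429, 317 and 459 (-0.68 ± 0.14, adjusted p = 0.124). Of 32 genes of protein folding in the endoplasmic reticulum, 25 had lower means and 6 were lower without overlap (18.8%). Among these were the translocon-associated Ssr1 (-0.38 ± 0.10) and Sdf2l1 (-0.48 ± 0.18). On the deposited scale 3 members of that list were higher without overlap (9.38%, against 16.7% of all genes) and none lower. Its median there was -0.11, or -0.26 relative to all genes. P53 targets had a median of -0.06, whose sign turned on the deposited scale (-0.09 relative to all genes there). Of 18, 5 were lower without overlap (27.8%, near the 22.6% of all genes). These 5 include the adhesion gene Perp at 1486, 1644 and 1749 against 916, 702 and 1267 (-0.79 ± 0.21) and the cell cycle inhibitor Cdkn1a (-0.69 ± 0.25). Antioxidant genes had 3 of 28 higher and 6 lower without overlap (32.1%, against 22.6% of all genes). The higher ones, Mt2A, Gstm1 and Gsta4, include 2 already given. On the deposited scale 6 antioxidant genes were higher without overlap (21.4%, against 16.7% of all genes) and 0 lower. The list's median there was -0.01, or -0.16 relative to all genes. Fatty acid genes had 6 of 25 higher and 2 lower (32%, against 22.6% of all genes). Their median of 0.06 turned to -0.06 with median centring (0.04 relative to all genes). The higher ones include Cpt1a, which admits fatty acids to mitochondria (0.46 ± 0.14), and Pdk4 (0.75), and the lower ones were Ehhadh (-0.45) and Ppard (-0.15).

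Chemokines and cytokines had 2 of 30 higher and 6 lower without overlap (26.7%, against 22.6% of all genes). Their median was 0.01, or -0.16 with median centring (-0.06 relative to all genes). Beside Ccl7, the implantation cytokine Lif read 234, 231 and 233 against 131, 75.2 and 176 (-0.86 ± 0.24, adjusted p = 0.204), above the vehicle rats at 68.3, 31.9 and 36.5. On the higher side, Ccl5, which attracts T cells, read 219.9, 207 and 256 against 344, 432 and 320.0 (0.64 ± 0.14, adjusted p = 0.156). Interferon response genes (6 of 35 without overlap, 17.1%) and antigen presentation (3 of 20, 15%) lay below the share over all genes. Gbp5, an interferon-induced GTPase, read 172, 124 and 138 against 239.8, 258 and 186 (0.60 ± 0.17). Prostaglandin genes had 2 of 15 lower without overlap (13.3%, below the 22.6% of all genes). The prostaglandin transporter Slco2a1 read 805, 952 and 998 against 510.4, 341 and 848 and overlapped (-0.77 ± 0.26). Of 21 water and ion transport genes 14 had lower means. The median was -0.04, with the sign turned on the deposited scale (-0.02 relative to all genes there). The 3 without overlap (14.3%, below the 22.6% of all genes) were all higher: the potassium channel subunit Kcne3 (0.65 ± 0.15, adjusted p = 0.164), the bicarbonate transporter Slc4a4 (0.45 ± 0.13, adjusted p = 0.224) and the carbonic anhydrase Car2 (0.38). Control genes used for loading had a median of -0.03, with 3 of 15 without overlap (20%). Ribosome biogenesis (-0.08), the respiratory chain (-0.10), heat shock (-0.03) and apoptosis (-0.11) genes had no call. The signs of all but the respiratory chain turned on the deposited scale. Relative to all genes, the 4 medians there were -0.07, -0.22, -0.12 and -0.11 in this order.

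**Figure D5:**
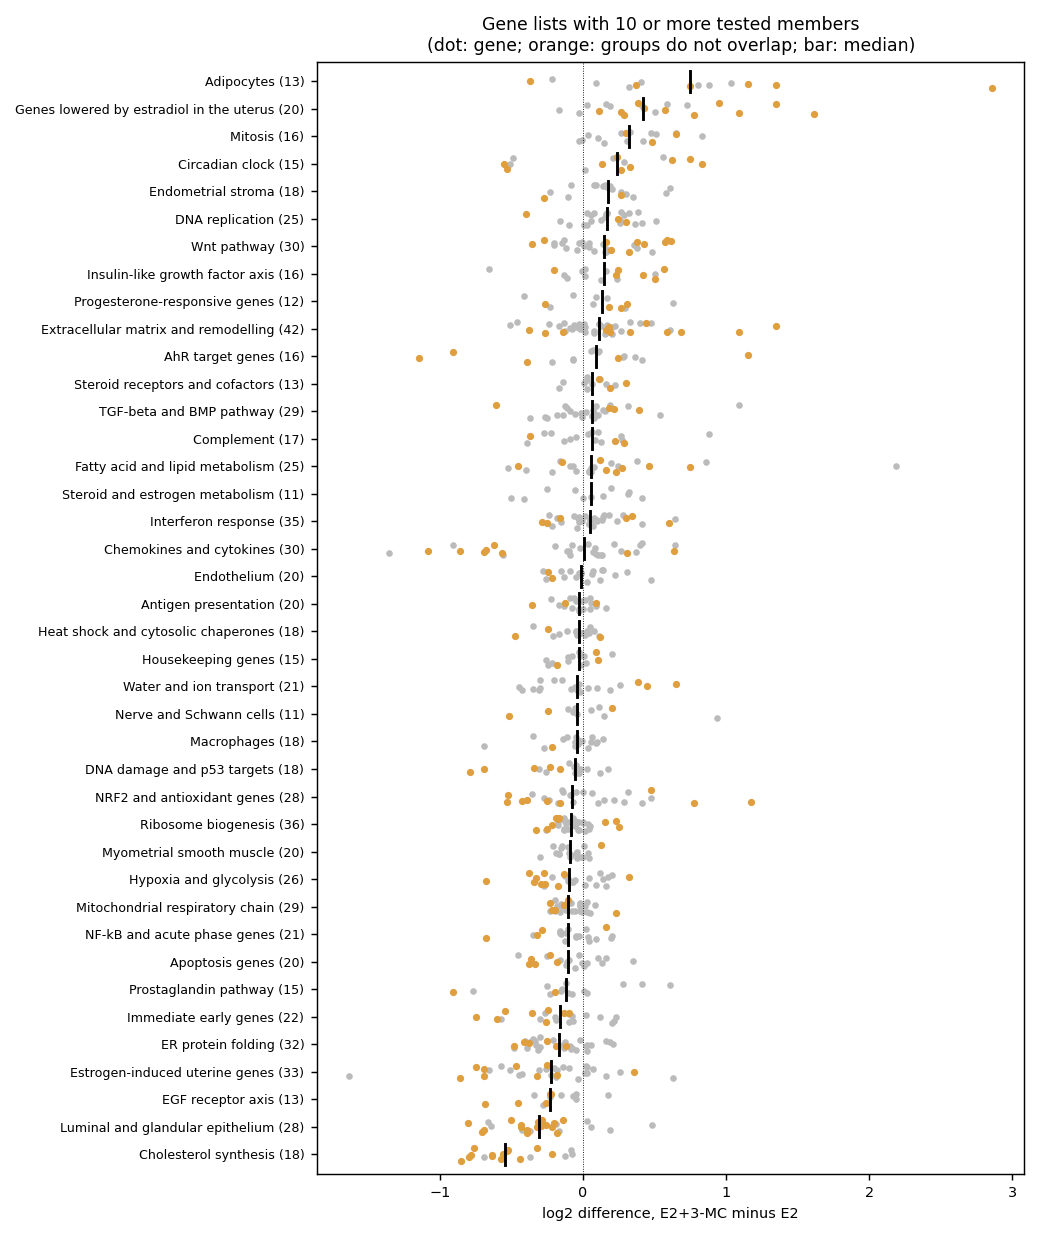
Log2 difference, E2+3-MC minus E2 (x axis), of every tested gene (dots) in the gene lists with 10 or more tested members, ordered by median (bars); orange dots are genes whose groups do not overlap. Cholesterol synthesis and epithelium have the lowest medians, -0.54 and -0.31, and adipocytes and genes lowered by estradiol the highest, 0.75 and 0.42.

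Of the 33 genes that differed by 2-fold or more, 16 were higher, 12 of them without overlap, and 17 lower, 11 of them without overlap; Postn and Dnajc14 alone were called. The following were chosen after their values were seen. Slpi-ps1, related to a secreted protease inhibitor, read 1874, 2170.0 and 1962 in the E2 rats and 391, 27.8 and 1827 in the E2+3-MC rats (-2.65 ± 0.87, adjusted p = 0.258). Rat 3 was just below the E2 rats and rat 2 near the vehicle rats, at 25.2, 21.9 and 23.4. Olfm4, a glycoprotein of glandular epithelium, read 1153, 1292 and 1328 against 548, 77.4 and 1070.5 in the same order of rats. The serotonin receptor Htr4 read 806, 726 and 826 against 248, 159 and 674 (-1.34 ± 0.35), and the secretin receptor Sctr 407, 448 and 378 against 129, 101 and 346 (-1.22 ± 0.30). For these 4 genes rat 2 was the lowest and rat 3 the highest of its group. Without rat 3, Sctr and Htr4 had the smallest p-values of all genes, with differences of -1.70 and -1.88 (adjusted p = 0.00041 and 0.000986). On the higher side, Car3, a carbonic anhydrase of fat and muscle, read 31.7, 383 and 322 against 971, 3396 and 345, and the stearoyl-CoA desaturase Scd 35.3, 129 and 119 against 652, 1013 and 123, with overlap in both. Rat 2 was again the highest, as for Fabp4.

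Without estradiol, no gene passed the test for 3-MC. In 3-MC against vehicle, limma called 0 of 10154 genes, 478 (4.71%) had an unadjusted p under 0.05, and 815 (8.03%) did not overlap. Both this comparison and E2+3-MC against E2 add 3-MC, and they share no rats. Across the 10154 genes the differences of the 2 comparisons correlated weakly (Pearson 0.112, Spearman 0.236), as a description across genes, which are not independent. The test of the difference between them, the interaction, called 0 genes by limma, with 570 (5.61%) at an unadjusted p under 0.05 and a smallest adjusted p of 0.36. Postn had an interaction of 0.77 (adjusted p = 0.837) and Dnajc14 one of -1.18 (adjusted p = 0.36). Ctnnd2 (0.93), Ccl7 (-1.43) and Adcy1 (-0.81) had adjusted p-values of 0.36, 0.707 and 0.707. Efemp1 differed by 1.09 with estradiol and -0.08 without it, and Fdps by -0.78 and -0.14.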

How the data were processed

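The authors deposited 1 table of linear intensity values per probe set for 12 arrays, and the submitters' processing notes name PLIER and Affymetrix Expression Console as the software. Versions, settings and the build were not given in the sources used here. How the arrays were scaled to each other is therefore unknown. Probe sets were named from the platform annotation: 15310 have 1 symbol, 323 several and 13581 none, and 15279 matched a RefSeq gene of GRCr8. For 527 genes with several probe sets the brightest was kept. Intensities were quantile normalized over all probe sets and arrays and transformed as log2(intensity + 16), which understates changes of dim genes. The 30% of genes with the lowest mean (below 6.44) were left out. limma 3.58.1 in R 4.3.3 (lmFit, eBayes) fitted 1 mean per group on 12 arrays, with 8 residual and 5.068 prior degrees of freedom. Genes were called at a two-sided Benjamini-Hochberg adjusted p under 0.05. An exact permutation test of 3 rats against 3 cannot go below p = 0.1.

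The comparison, the 51 gene lists and the rule for named genes were chosen with earlier results of these data known. The rule names fixed AhR and estrogen markers, the called genes and the genes of smallest p in each direction whose rats do not overlap, and up to 2 members of smallest p in each list. Other genes named from a list were chosen after their values were seen. Lists are described by counts and medians beside the same over all genes, with no test. The labels number the rats 1 to 3 in every group. Deviations of same-numbered E2 and E2+3-MC rats correlated at 0.027, 0.038 and 0.022, so these 2 groups were not treated as paired. Those of E2 and 3-MC rats correlated at 0.233, 0.103 and 0.117, and over all 18 same-numbered pairs of rats the range was -0.255 to 0.233. Alternatives covered the scale, offset, filter, probe sets, arrays, eBayes options, replicate block and leaving out each rat. The number of arrays limits the precision.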

Additional observations from a re-analysis of the deposited data

How the results depend on the processing

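The main count of 2 called genes was also 2 with offsets of 64 or 4, with no filter or a filter on the lowest 50%, with every probe set, with the trend and robust options, and without E2 rat 1. It was 0 on the deposited scale, 1 with median centring and 0 in the 6 arrays alone. With the replicate number as a block it was 3, adding Gpm6a; its difference was 0.78 (adjusted p = 0.0384 with the block). Deviations of same-numbered E2 and E2+3-MC rats correlated at 0.022 to 0.038, and those of E2 and 3-MC rats at 0.103 to 0.233. Differently numbered E2 and 3-MC rats were not compared, so these values do not show pairing. Leaving out 1 rat at a time gave 0 to 284 calls. The interaction called 0 to 2 genes when 1 rat was left out, the 2 being without E2+3-MC rat 3, and 0 under the other settings run.

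Of 122 named genes under these settings, 2035 values were compared, and 14 changed sign. On the deposited scale these were Ahr (0.101) and Siglec5 (0.18). With median centring they were Arnt (-0.0338), S100g (-0.247), Pgr (-0.241), Esr1 (-0.116), Igf1 (-0.221), Npm1 (-0.018) and Pmp22 (-0.0106). Igf1 was -0.00765 without E2 rat 1 and -0.0835 without E2+3-MC rat 1. Pgr was -0.00356 without E2 rat 3 and -0.0976 without E2+3-MC rat 3, where S100g was -0.0642. Without E2+3-MC rat 2 the values were 0.08 for S100g, 0.126 for Pgr and 0.119 for Igf1. Of 866 list medians, 129 moved by more than the spread between rats, 35 of them on the deposited scale and 30 with median centring; the cause was not tested. Signal over background limits Cyp1a1, Cyp1a2, Cyp1b1, Ahrr and Esr2, which lay below the dim limit.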
